A study of Mus musculus with 8 samples.

Results

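The 10 genes described here encode proteins that reseal the muscle fibre membrane and proteins that build caveolae. They are *Dysf*, *Myof*, *Trim72*, *Cav1*, *Cav2*, *Cav3*, *Ptrf*, *Sdpr*, *Murc* and *Ehd2*. Members were chosen by gene symbol in the deposited array table, and the cavins are listed there under the older symbols *Ptrf* (*Cavin1*), *Sdpr* (*Cavin2*) and *Murc* (*Cavin4*). All 10 were found among 22206 probe sets (a probe set is the group of short probes that measures a gene on the array), each with 1 probe set of its own, and all 10 were marked as expressed in both groups. The muscles were gastrocnemius (GAS) of male C57/Bl6j mice aged 22 weeks. At about 10 weeks of age, GAS in 1 leg received an adeno-associated virus (AAV) carrying AAV sh-RNA MYTHO, a short hairpin RNA against *Mytho*. The contralateral leg received AAV sh-RNA scrmb, a scrambled hairpin, so both groups carried virus and a hairpin driven by the U6 promoter, which is not restricted to a cell type. The virus was of serotype 1, which the paper describes as having a tropism for skeletal muscle cells. Total RNA was taken 12 weeks later, with 4 arrays in the MYTHO-KD group and 4 in the scramble group.

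When the surface membrane of a muscle fibre tears, calcium enters and vesicles are brought to the wound, where they fuse and close it. Dysferlin, encoded by *Dysf*, is a calcium-binding ferlin that takes part in this fusion, and its loss causes a limb-girdle muscular dystrophy. MG53, encoded by *Trim72*, is a muscle protein that gathers vesicles at the wound and binds dysferlin and caveolin 3. Caveolae are small flask-shaped pits of the membrane, built from caveolins and a coat of cavins, which flatten when the membrane is stretched. In skeletal muscle the fibres use caveolin 3, whereas caveolins 1 and 2 are abundant in endothelium and adipocytes.

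Values are log2 signals and were deposited per group, as the authors' average over 4 arrays with its standard deviation (SD), so whether single arrays of the groups overlap was not analysed here. The target of the hairpin, listed as *D230025D16Rik*, had an authors' average of 7.71 (log2) in MYTHO-KD and 10.02 in scramble, a difference of -2.31 (standard error, SE, 0.304, adjusted p = 0.0138, limma). The median difference over all probe sets was -0.01, with the 5th percentile at -0.47 and the 95th at 0.53. Signals of the skeletal muscle markers *Acta1* and *Myh4* stood at the top of the scale (19.93) in both groups.

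Of the 10 genes, 9 were higher in MYTHO-KD and 1, *Murc*, was lower. The members' median difference was 0.285 on the log2 scale, beside -0.01 over all probe sets, of which 46.9% were higher. In limma's moderated test (two-sided, MYTHO-KD against scramble) 3 members, *Myof*, *Ptrf* and *Cav2*, had an unadjusted p under 0.05 and were higher, whereas 6.48% of all probe sets did so in that direction. None was lower at that limit, which 5.52% of all probe sets were, and 12% passed in either direction. None of the 10 had an adjusted p under 0.05 (Benjamini-Hochberg over all probe sets, limma), a limit passed by 0.275% of all probe sets. Likewise none reached 2-fold with an unadjusted p under 0.05, a call made for 1.12% of all probe sets. At 1.5-fold, 2 members passed, *Myof* and *Ptrf*, both higher, beside 3.54% of all probe sets that were higher by this rule. RNA came from whole muscle, so that a change in the number of cells of a type and a change in RNA per cell cannot be told apart.

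DNA upstream of the start is printed for the 3 members past the unadjusted limit and for the 1 member that was lower. Each is the 250 bases before the annotated start of transcription, from RefSeq on the mouse build GRCm38.p6 (mm10), written 5′ to 3′ on the strand of the gene. *Ptrf* has a pair of annotated starts that lie close together, and the first listed is shown. Capitals mark matches on either strand to the motifs searched, which were CAGCTG (an E-box bound by myogenic factors), CATTCC (bound by TEAD factors), GTAAACA (bound by forkhead factors such as FoxO), TATAAA (the TATA box), GGGCGG (bound by Sp1), the MEF2 site and the CArG box bound by serum response factor.
Ptrf, chr11:100970618-100970867, minus strand: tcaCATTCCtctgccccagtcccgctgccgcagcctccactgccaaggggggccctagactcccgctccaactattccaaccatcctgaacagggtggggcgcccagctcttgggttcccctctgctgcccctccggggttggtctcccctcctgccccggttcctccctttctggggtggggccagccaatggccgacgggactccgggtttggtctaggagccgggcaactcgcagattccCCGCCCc
Myof, chr19:38043578-38043827, minus strand: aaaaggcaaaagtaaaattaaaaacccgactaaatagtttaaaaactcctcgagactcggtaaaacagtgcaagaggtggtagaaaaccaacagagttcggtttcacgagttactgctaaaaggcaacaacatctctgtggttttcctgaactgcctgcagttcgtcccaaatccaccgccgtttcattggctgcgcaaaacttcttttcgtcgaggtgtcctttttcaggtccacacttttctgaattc
Cav2, chr6:17280935-17281184, plus strand: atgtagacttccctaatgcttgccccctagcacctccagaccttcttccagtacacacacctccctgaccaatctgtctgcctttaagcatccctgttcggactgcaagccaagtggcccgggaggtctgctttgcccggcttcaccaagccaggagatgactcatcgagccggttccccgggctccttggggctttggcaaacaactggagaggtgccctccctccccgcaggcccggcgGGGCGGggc
Murc, chr4:48663264-48663513, plus strand: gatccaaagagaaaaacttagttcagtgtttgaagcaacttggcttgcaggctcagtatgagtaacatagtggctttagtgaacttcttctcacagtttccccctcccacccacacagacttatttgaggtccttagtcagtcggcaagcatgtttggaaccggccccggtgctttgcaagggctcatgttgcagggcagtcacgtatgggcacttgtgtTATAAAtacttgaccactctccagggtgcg

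The *Ptrf* window held 1 CATTCC and 1 GGGCGG, the latter with its first base 7 bases before the start, and the *Cav2* window held 1 GGGCGG beginning 9 bases before it. Over all 32851 windows of the same length, 32.7% held GGGCGG and 12.6% held CATTCC. The *Murc* window held 1 TATAAA beginning 30 bases before the start, a motif found in 12.4% of all windows. None of the 7 motifs was found in the *Myof* window. The share of G and C was 67.6% for *Ptrf*, 62.0% for *Cav2*, 48.8% for *Murc* and 42.8% for *Myof*, beside a median of 52.4% over all windows. A match of letters is a description of the window and not a binding site. Among the members not printed, GGGCGG was also found in a window of *Dysf*, of *Cav1* and of *Ehd2*, and TATAAA in a window of *Cav1*. CAGCTG, held by 13.0% of all windows, was found once in the *Cav3* window and once in the *Ehd2* window. GTAAACA, the MEF2 site and the CArG box were found in no window of the 10 genes. All 3 are rare, being held by 3.17%, 0.508% and 1.47% of all windows, in that order.

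**Figure D1:**
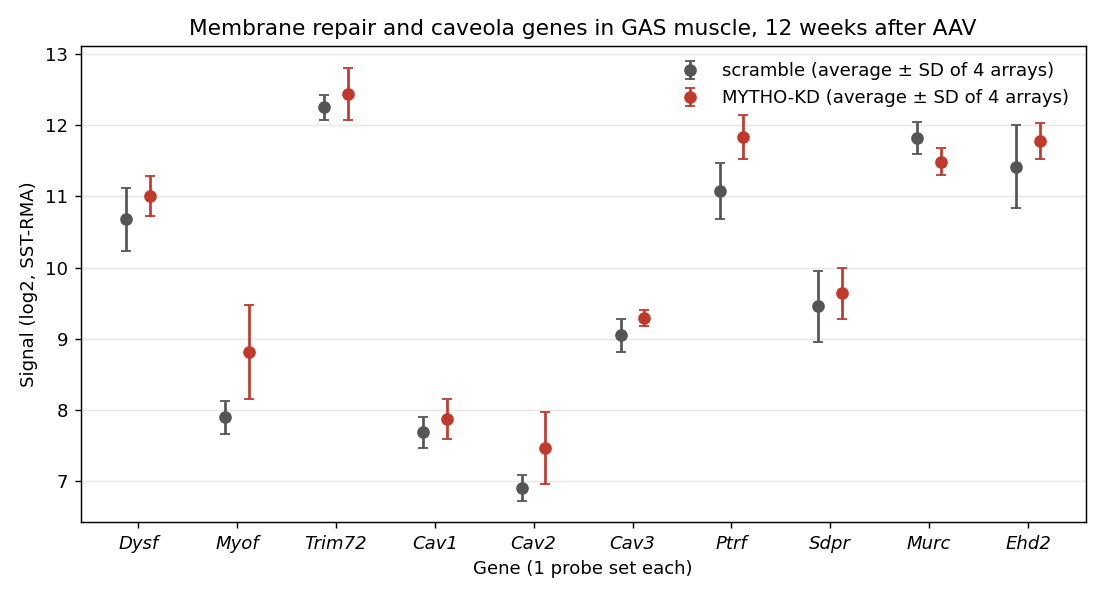
Signal of each of the 10 genes (log2 after SST-RMA, vertical axis) in scramble (grey) and MYTHO-KD (red) GAS muscle; points are the authors' averages of 4 arrays and bars the authors' SDs. The bars of the groups stand apart for *Myof* and *Ptrf* and overlap or touch for the other 8 genes; levels of different genes are not comparable, since each has its own probes.

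Ferlins are large membrane proteins with several calcium-binding C2 domains. *Myof* encodes myoferlin, which acts in myoblast fusion and membrane repair and is abundant in regenerating fibres. It lies on chromosome 19 from 37899036 to 38043577 (mm10, minus strand). Its authors' average was 7.90 (log2) in scramble and 8.81 in MYTHO-KD, with SDs of 0.23 and 0.66. The MYTHO-KD muscles were thus the higher group and also the more variable one, and averages of the groups lay further apart than the sum of both SDs. The difference of 0.91 (log2), a ratio of 1.88, was the largest of the 10 (SE 0.286, 95% interval 0.29 to 1.53, unadjusted p = 0.00800, adjusted p = 0.221, limma), and 1.17% of all probe sets had a higher one. With unequal variances allowed for the groups, its unadjusted p was 0.0644.

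*Dysf*, on chromosome 6 from 84008590 to 84211060, had averages of 10.68 in scramble and 11.01 in MYTHO-KD, with SDs of 0.44 and 0.28. These values overlap within their SDs. The difference was 0.33 (SE 0.233, 95% interval -0.18 to 0.84, adjusted p = 0.633, limma), so a fall of *Dysf* to 1/2 of the scramble signal lies outside the interval, as does a doubling. *Trim72*, on chromosome 7 from 128003989 to 128011393, had averages of 12.25 and 12.44 with SDs of 0.18 and 0.37. Its difference of 0.19 was smaller than the SD of the MYTHO-KD group (95% interval -0.25 to 0.63, adjusted p = 0.782, limma). For both genes the difference was smaller than the larger of the group SDs and exceeded the smaller.

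Caveolins are hairpin-shaped proteins that insert into the inner face of the membrane and assemble into the caveola. *Cav2*, which needs caveolin 1 to reach the cell surface, had averages of 6.91 in scramble and 7.47 in MYTHO-KD, with SDs of 0.18 and 0.51. As with *Myof*, the MYTHO-KD group was the more variable, and averages plus or minus 1 SD overlapped between the groups. The difference was 0.56, a ratio of 1.47 (SE 0.239, 95% interval 0.04 to 1.08, unadjusted p = 0.0372, adjusted p = 0.381, limma). The unadjusted p was 0.0838 without moderation of the variances and 0.112 with unequal variances, so this value passed the limit by the choice of variance model.

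*Cav1*, the main caveolin outside muscle fibres, lies beside *Cav2* on chromosome 6. *Cav2* spans 17281185 to 17289130 and *Cav1* 17306335 to 17341452, on the same strand and 17204 bases apart. The *Cav1* averages were 7.69 in scramble and 7.87 in MYTHO-KD, with SDs of 0.22 and 0.28. They differed by 0.18, less than either SD (95% interval -0.23 to 0.59, adjusted p = 0.780, limma). *Cav3*, the muscle caveolin, on chromosome 6 from 112459501 to 112472872, had averages of 9.05 and 9.29 with SDs of 0.23 and 0.11. Its difference of 0.24 had the narrowest interval of the 10 genes (-0.13 to 0.61, adjusted p = 0.629, limma). Whether the difference of *Cav2* departs from those of *Cav1* and *Cav3* was not tested, since this needs values of single arrays, and the 95% intervals of the 3 overlap.

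**Figure D2:**
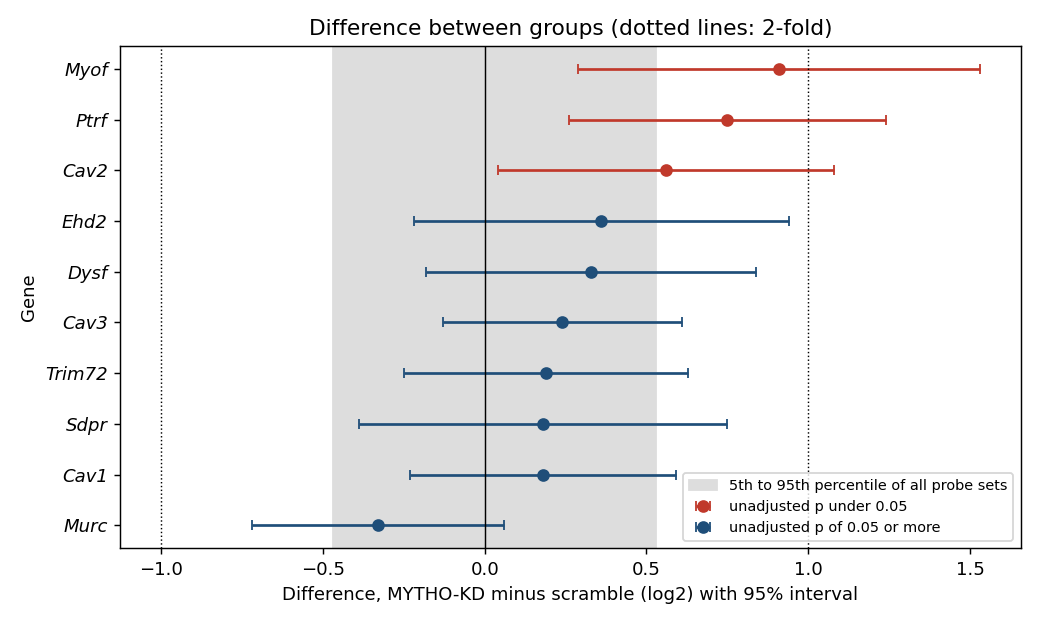
Difference between MYTHO-KD and scramble (log2, horizontal axis) for each of the 10 genes, with 95% intervals from limma's moderated test; red marks an unadjusted p under 0.05, the grey band runs from -0.47 to 0.53 (5th to 95th percentile of all probe sets) and dotted lines mark 2-fold. *Myof*, *Ptrf* and *Cav2* lie to the right of the band, and only their intervals reach past the dotted line at 2-fold.

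Cavins form the coat on the inner face of caveolae. *Ptrf* encodes cavin 1, without which caveolae do not form, and its loss in patients causes lipodystrophy with muscle disease. It lies on chromosome 11 from 100956733 to 100970887 (minus strand), with averages of 11.08 in scramble and 11.83 in MYTHO-KD and SDs of 0.39 and 0.31. The groups lay further apart than the sum of both SDs, and *Myof* was the other member of which this was true. Such a gap was found in 7.99% of all probe sets, and with MYTHO-KD higher in 4.03%. The difference was 0.75, a ratio of 1.68 (SE 0.227, 95% interval 0.26 to 1.24, unadjusted p = 0.00632, adjusted p = 0.204, limma). Of the 10 genes *Ptrf* had the lowest p, ranking 684 of 22206 probe sets, and its unadjusted p stayed between 0.00345 and 0.0252 over all settings run.

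*Sdpr* encodes cavin 2, which shapes caveolae in endothelium of some tissues. On chromosome 1 from 51289126 to 51302960, it had averages of 9.46 in scramble and 9.64 in MYTHO-KD with SDs of 0.50 and 0.36, and the difference of 0.18 was smaller than either SD (95% interval -0.39 to 0.75, adjusted p = 0.850, limma). *Murc* encodes cavin 4, the cavin of striated muscle. It lies on chromosome 4 from 48663514 to 48673502, with averages of 11.82 in scramble and 11.49 in MYTHO-KD and SDs of 0.23 and 0.19. It was the 1 member that was lower, by a difference of -0.33, a ratio of 0.796 (SE 0.177, 95% interval -0.72 to 0.06, unadjusted p = 0.0865, adjusted p = 0.491, limma). The 95% intervals of *Ptrf* and *Murc* did not overlap, and the difference between these genes was not tested.

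*Ehd2* encodes an ATPase that sits at the neck of caveolae and holds them at the membrane. It lies on chromosome 7 from 15946977 to 15967567 and had averages of 11.42 in scramble and 11.78 in MYTHO-KD. The scramble SD of 0.58 was more than that of MYTHO-KD (0.25) and larger than the difference of 0.36 (95% interval -0.22 to 0.94, adjusted p = 0.654, limma). Taking all 10 genes, the 95% interval lay wholly within a 2-fold change either way for 7, and the SD was larger in MYTHO-KD for 4.

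**Figure D3:**
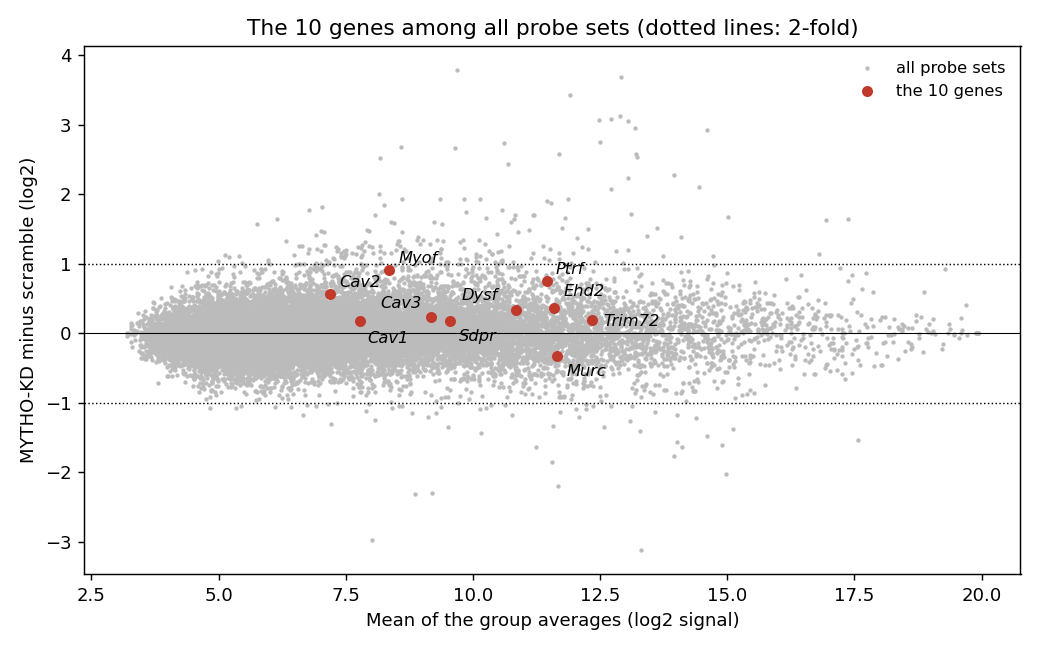
Difference between MYTHO-KD and scramble (log2, vertical axis) against the mean of the group averages (log2 signal, horizontal axis) for all 22206 probe sets (grey) and the 10 genes (red). No member lies beyond the dotted lines at 2-fold, and *Murc* is the 1 member below 0.

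The genes that work with these proteins were taken from 3 lists of 42 genes in all, every one with a probe set. Of the 42, 12 had an unadjusted p under 0.05 and all 12 were higher in MYTHO-KD, beside 6.48% of all probe sets in this direction, and none was lower. Their median difference was 0.22 on the log2 scale, with 32 higher and 10 lower. The 8 other caveola genes had a median difference of 0.195, and 1 of them passed. This was *Ehd4*, a relative of *Ehd2* that acts in traffic of endosomes. It lies on chromosome 2 from 120089175 to 120154606, and its averages were 8.77 in scramble and 9.93 in MYTHO-KD with SDs of 0.30 and 0.29. *Ehd4* rose by 1.16 (log2; SE 0.205, 95% interval 0.71 to 1.61, adjusted p = 0.0443, limma), the only gene of the 42 with an adjusted p under 0.05. That call was lost without moderation (adjusted p = 0.201) and with unequal variances (adjusted p = 0.344). *Prkcdbp*, which encodes cavin 3, differed by 0.21 (SE 0.152, adjusted p = 0.647, limma).

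Among 27 other membrane repair genes, the median difference was 0.33. An unadjusted p under 0.05 was found for 10, all higher, beside 6.48% of all probe sets in this direction. None of the 27 passed the adjustment. The lowest p was that of *S100a10*, a partner of annexin A2, with averages of 7.37 in scramble and 8.32 in MYTHO-KD (difference 0.95, SE 0.216, adjusted p = 0.0993, limma). *Stx4a*, a SNARE protein of the surface membrane, differed by 0.63, from 10.26 to 10.89 (adjusted p = 0.168). *S100a11*, a calcium-binding partner of annexins, differed by 0.68 (adjusted p = 0.208) and *Anxa7*, a calcium-dependent membrane-binding annexin, by 0.70 (adjusted p = 0.238). The other 6 of the 10 were *Anxa5*, *Anxa2*, *Syt7*, *Capns1*, *Anxa4* and *Fer1l6*, named here after their values were seen, with differences from 0.40 to 0.80. The dysferlin-linked channel gene *Ano5* (-0.02) and the muscle calpain gene *Capn3* (0.03), both causes of limb-girdle dystrophy when mutated and also named after their values were seen, differed by less than their SEs of 0.156 and 0.186.

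The 7 genes listed here as partners of caveolin 3 in muscle had a median difference of 0.04. Beside 12% of all probe sets in either direction, 1 of these 7 had an unadjusted p under 0.05. This was *Popdc3*, a Popeye domain protein of striated muscle, with averages of 12.95 in scramble and 13.36 in MYTHO-KD (difference 0.41, SE 0.169, adjusted p = 0.364, limma). The differences of the 7 ran from -0.52 to 0.41. Like *Cav3* itself, none of them showed a difference that passed the adjustment.

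Several members are expressed by cells other than muscle fibres, and markers of those cells are given beside them. Over all probe sets, 46.9% were higher in MYTHO-KD, and 6.48% were higher with an unadjusted p under 0.05. All 12 endothelial markers were higher in MYTHO-KD, 3 of them with an unadjusted p under 0.05 (*Kdr*, 0.75; *Eng*, 0.64; *Egfl7*, 0.41), with a median of 0.34. The averages of these 12 ran from 6.31 to 12.85 in scramble and from 6.65 to 13.22 in MYTHO-KD. Of 7 adipocyte markers, 6 were lower and none had an unadjusted p under 0.05 (median -0.33). The exception was *Fabp4*, which endothelium also expresses, with averages of 14.38 in scramble and 14.42 in MYTHO-KD. SDs of the adipocyte markers reached 2.22 in scramble and 2.13 in MYTHO-KD, beside a median SD of 0.27 in each group over all probe sets. The direction of these markers is therefore uncertain. All 8 macrophage markers were higher (median 0.86), 5 with an unadjusted p under 0.05, led by *Cd68* (2.53, adjusted p = 0.0182, limma) and *Lyz2* (1.94, adjusted p = 0.0277). All 7 fibroblast and matrix markers were higher (median 0.72), with *Lum* (1.49, adjusted p = 0.0443) and *Col3a1* (1.43, adjusted p = 0.102) past the unadjusted limit.

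Of 9 markers of regenerating fibres and myoblasts, 6 were higher, 2 were lower and 1 was equal, with a median of 0.18. An unadjusted p under 0.05 was found for 3: *Tmem8c*, which encodes the fusion protein myomaker (1.77, adjusted p = 0.0749, limma), *Myh3*, embryonic myosin (1.27, adjusted p = 0.366), and *Chrna1*, an acetylcholine receptor subunit (1.07, adjusted p = 0.141). In this list *Chrng* was not marked as expressed in both groups, and *Myh8* was at the top of the scale in both. Of the 10 fibre markers, 3 were higher, 5 were lower and 2 were equal, with a median of -0.015. *Mb* (0.93, adjusted p = 0.0754) and *Myh1* (0.59, adjusted p = 0.230) were past the unadjusted limit, and none was lower at it. *Acta1* and *Myh4*, at the top of the scale in both groups, could show no difference. The 6 smooth muscle and pericyte markers had a median of 0.115, and none had an unadjusted p under 0.05. No marker of the other lists was marked as not expressed in a group. The part that endothelial, macrophage, fibroblast and regenerating cells have in the values of *Ptrf*, *Cav2* and *Myof* was not tested. The members that are most restricted to striated muscle, *Trim72*, *Cav3* and *Murc*, had differences of 0.19, 0.24 and -0.33. *Cav1*, the main caveolin outside muscle fibres, and *Sdpr*, which acts in endothelium of some tissues, each differed by 0.18.

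**Figure D4:**
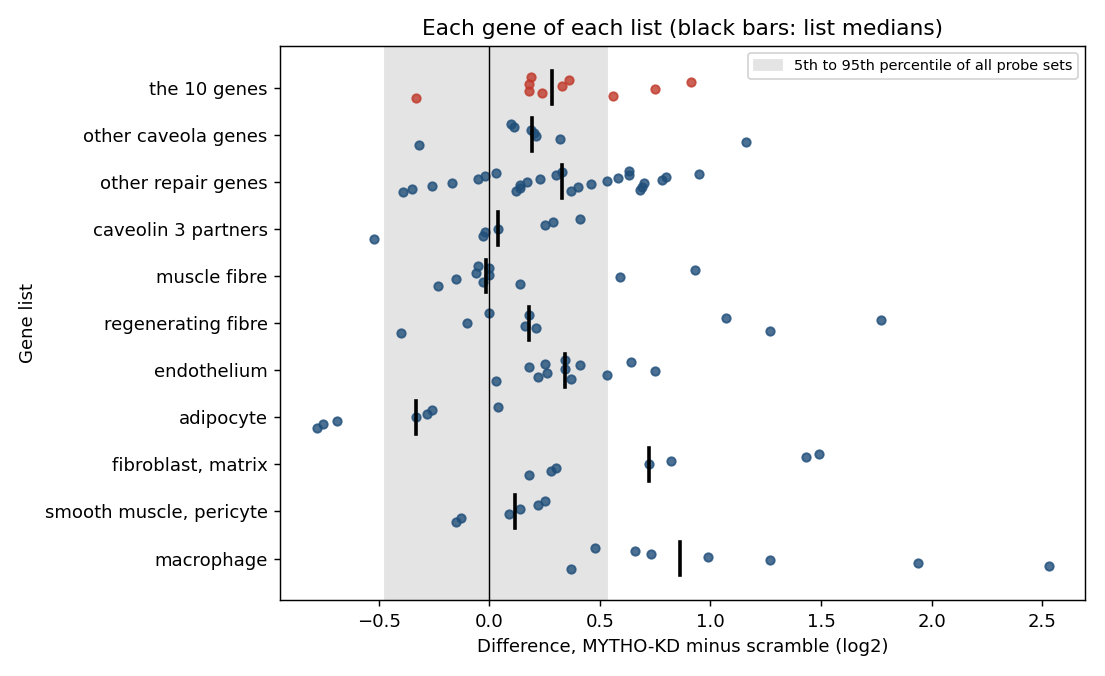
Difference between MYTHO-KD and scramble (log2, horizontal axis) of each gene in the 10 members (red), the 3 lists of working partners and the 7 lists of cell markers (blue); black bars are list medians and the grey band runs from -0.47 to 0.53, the 5th to 95th percentile of all probe sets. The median of the 10 genes (0.285) lies above those of the other caveola genes (0.195) and the caveolin 3 partners (0.04). It also lies above those of the regenerating fibre (0.18), smooth muscle and pericyte (0.115), muscle fibre (-0.015) and adipocyte markers (-0.33). It lies below those of the other repair genes (0.33) and the endothelial (0.34), fibroblast (0.72) and macrophage markers (0.86). Likeness between lists was not tested.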

How the data were processed

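RNA of 8 GAS muscles was hybridized to Clariom S Mouse arrays. Per the file headers and the study's methods, the authors processed the arrays in the Transcriptome Analysis Console (4.0.1, default parameters) with SST-RMA, which also stretches low signals, and deposited a table with the log2 average, the SD and an expression flag of each group. The submitters' processing notes also name Affymetrix Expression Console, RMA and mm10. The kind of average is not stated, and it was treated as a plain mean; if it is not, p-values may be too low. The authors' deposited fold changes, p-values and false discovery rates were not used.

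The planned limma fit on single arrays was not possible. In limma 3.58.1 (R 4.3.3) the variances of the groups were averaged (6 residual degrees of freedom), shrunk by squeezeVar towards a prior SD of 0.284 with 5.85 prior degrees of freedom, and p-values adjusted over 22206 probe sets by Benjamini-Hochberg. Arrays have no depth; 4 per group limit the precision. Legs of a mouse were treated as independent, so the spread used in the tests mixes differences between mice with differences between legs. The p-values may therefore be too high or too low. Members, lists and tests were chosen with earlier results of these data known. All 10 members and the target of the hairpin are named. Of each other list, the genes with an unadjusted p under 0.05 and the lowest p (up to 4) are named. *Csf1r* and *C1qb*, also named by this rule, differed by 0.99 and 1.27. *Prkcdbp*, *Fabp4*, *Acta1*, *Myh4*, *Myh8* and *Chrng* were named outside this rule, and other names are marked where they appear. Promoter windows came from RefSeq (all 10 members matched).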

Additional observations from a re-analysis of the deposited data

How the results depend on the processing

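The settings tried were no moderation of the variances, a prior with a trend and robust fitting, unequal variances, leaving out dim probe sets (mean signal under 5.715, the 30th percentile), 1 probe set per symbol entry, and subtracting the median difference. Apart from the last, which moves every gene alike, they change the p-values and not the differences. No member had an adjusted p under 0.05 in any of them (lowest 0.133). The number of members with an unadjusted p under 0.05 was 3, and fell to 1 (*Ptrf*) with unequal variances and to 2 (*Myof* and *Ptrf*) without moderation. The number called with an unadjusted p under 0.05 was 0 at 2-fold and 2 (*Myof* and *Ptrf*) at 1.5-fold, the limit being wider; 3.54% of all probe sets were higher by that rule. Of the 42 working partners, between 8 and 13 had an unadjusted p under 0.05. The share of all probe sets past this limit was not counted for the settings tried here. Whether these changes in count are particular to the members or the partners was therefore not tested. The same settings for named genes that are no members were chosen after seeing the data. *Lum*, *Cd68* and *Lyz2*, like *Ehd4*, lost an adjusted p under 0.05 without moderation and with unequal variances; *Eng*, *Csf1r* and *Myh3* lost the unadjusted limit there, and *Egfl7* and *Myh3* with the trend. With the trend, *Mb* (0.00927), *Tmem8c* (0.0288), *C1qb* (0.0358) and *Col3a1* (0.0454) gained an adjusted p under 0.05. No paired analysis was possible because the table gives group averages and not single arrays; for the same reason no replicate was left out in turn.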
